A study of Mus musculus with 22 samples.

Results

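Cytosolic ribosomal protein genes were described across the cultures of this study, in which mouse stem cells were turned into osteoblasts. The members were the rows of the authors' 3 comparison tables whose symbol has the form of a large-subunit (Rpl), small-subunit (Rps), stalk (Rplp0, Rplp1, Rplp2) or Rpsa gene. There were 81 members, 49 of the large and 32 of the small subunit, among 19781 genes in the ESC tables and 19057 in the iPSC table. All cells carried Col2.3GFP, a transgene that switches on green fluorescent protein under part of the promoter of type I collagen, which is active in the osteoblast lineage, so the sort keeps cells with that promoter active. The groups used here were cells sorted for GFP from osteoblast cultures of embryonic stem cells (sorted ESC-OB GFP+, 3 samples), unsorted osteoblast cultures (ESC-OB, 3), undifferentiated embryonic stem cells (ESC, 3), osteoblast cultures of induced pluripotent stem cells (iPSC-OB, 2) and undifferentiated induced pluripotent stem cells (iPSC, 2). Differentiated groups had been grown as embryoid bodies for 6 days, with 0.1 µM retinoic acid between day 3 and day 5, and then in osteogenic medium up to 35 to 40 days. Passages were 20 to 30 for ESC and ESC-OB and 10 to 20 for iPSC and iPSC-OB. Stem cells had been kept on feeder cells or in serum-free medium, and libraries made with a standard or an ultra-low-input kit. The labels do not assign these to samples and do not say whether replicates were separate cultures, so p-values measure only the spread between these samples. Calvarial osteoblasts and GFP+ cells of bone have no comparison in the 3 tables and were not analysed here.

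A ribosome has a small subunit, which reads the messenger RNA, and a large subunit, which joins amino acids. Each subunit is built in the nucleolus from ribosomal RNA and from proteins made in near-equal numbers. The messenger RNAs of ribosomal proteins begin with a run of pyrimidines (the 5′ terminal oligopyrimidine, or TOP, element), through which the mTOR pathway controls their translation. Dividing stem cells make many ribosomes, and Myc proteins raise the transcription of ribosome genes. Some members have paralogues with narrow expression: Rpl10l and Rpl39l are used in male germ cells, where the X-linked genes Rpl10 and Rpl39 are silenced during meiosis, and Rpl3l in heart and skeletal muscle.

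The coding sequences of the 2 germ-cell paralogues are shown beside those of their X-linked partners, because reads can be assigned to one or the other only where the letters differ. Capitals mark the bases that differ within each pair, and each sequence is the sense strand read 5′ to 3′ from the start codon, taken from the GENCODE transcripts of GRCm38. Rpl39l (chromosome 16) and Rpl39 (chromosome X) are given whole, and of Rpl10l (chromosome 12) and Rpl10 (chromosome X) bases 1 to 240 are given.
Rpl39l: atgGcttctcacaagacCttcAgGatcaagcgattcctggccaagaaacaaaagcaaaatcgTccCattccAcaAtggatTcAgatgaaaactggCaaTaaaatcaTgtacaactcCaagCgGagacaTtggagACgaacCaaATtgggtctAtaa
Rpl39: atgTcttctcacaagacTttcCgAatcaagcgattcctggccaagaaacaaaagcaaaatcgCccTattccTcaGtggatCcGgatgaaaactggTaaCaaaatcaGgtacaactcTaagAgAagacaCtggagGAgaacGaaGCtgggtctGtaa
Rpl10l: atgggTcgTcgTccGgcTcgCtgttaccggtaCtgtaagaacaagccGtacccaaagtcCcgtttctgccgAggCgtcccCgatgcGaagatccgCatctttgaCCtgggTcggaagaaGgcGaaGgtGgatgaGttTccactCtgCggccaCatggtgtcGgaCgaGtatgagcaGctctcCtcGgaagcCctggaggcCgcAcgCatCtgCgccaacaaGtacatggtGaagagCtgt
Rpl10: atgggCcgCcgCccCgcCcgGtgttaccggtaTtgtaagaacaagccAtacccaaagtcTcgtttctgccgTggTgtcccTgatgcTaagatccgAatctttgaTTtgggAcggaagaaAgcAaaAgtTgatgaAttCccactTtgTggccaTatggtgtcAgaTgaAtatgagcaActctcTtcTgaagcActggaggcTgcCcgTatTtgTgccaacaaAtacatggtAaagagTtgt
Rpl39l and Rpl39 differed at 23 of 156 coding bases, and their longest stretch of identical letters was 38 bases. Rpl10l and Rpl10 differed at 98 of 645 coding bases, 41 of them in the stretch shown, and no stretch of more than 23 bases was identical. Identity over the coding sequence was 85.3% for Rpl39l and Rpl39 and 84.8% for Rpl10l and Rpl10. It was 87.9% for Rpl36al and Rpl36a, 76.1% for Rps27l and Rps27 and 73.3% for Rpl3l and Rpl3.

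The tables hold no values per sample. For each gene they give a base mean, which is the normalised count averaged over the libraries of a fit, the log2 fold change, its standard error and an adjusted p. A negative fold change means a lower level in the differentiated cells, and a gene was taken as changed at an adjusted p under 0.05. Group levels were estimated from the base means and folds and scaled to a common total (CPM). Depths were estimated from the lowest base means, taking the normalised total to be the same in every library of a fit. By that estimate sorted GFP+ libraries were the deepest, with 22.4 to 30.1 M reads. ESC-OB libraries had between 6.72 and 11.5 M, ESC libraries between 4.49 and 19.5 M, iPSC-OB libraries between 10.1 and 17.7 M and iPSC libraries between 10.4 and 13.0 M. The last range covers 3 libraries, against 2 iPSC samples in the labels. Osteoblast markers summed to 18853 CPM in sorted cells, 12650 in ESC-OB and 858 in ESC, and to 10703 in iPSC-OB and 1009 in iPSC, but Bglap, which encodes osteocalcin, was estimated at 0.536, 0.830 and 1.02 CPM in sorted cells, ESC-OB and iPSC-OB. Col1a1, Col1a2 and Sparc gave most of the sum in sorted cells (5702, 4572 and 7939 CPM). Between sorted cells and ESC-OB 0 of the 8 osteoblast markers passed the test of the difference described below, in which the standard error is too large. Alpl, the alkaline phosphatase on the same list, fell in all 3 comparisons, with 42.5 CPM in sorted cells, 10.9 in ESC-OB and 308 in ESC, and 13.9 in iPSC-OB and 127 in iPSC. The 5 pluripotency markers summed to 21.2, 33.6 and 3704 CPM in sorted cells, ESC-OB and ESC, and to 57.1 and 2060 in iPSC-OB and iPSC. These are bulk samples, so fewer cells of a type and less RNA per cell cannot be told apart.

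Members with a base mean under 100 in the ESC tables were Rpl3l, Rpl30, Rps27, Rpl34 and Rpl39l (4.78, 7.56, 18.5, 38.0 and 54.2). Besides Rpl10l, at 139.7, the other members lay between 1662 (Rpl35a) and 17081 (Rpl4). Rpl30, Rps27 and Rpl34 encode constant parts of the ribosome. Ribosomal protein genes have many near-identical processed copies in the mouse genome, and no source used here says how reads that match several places were counted, so the values of these 3 genes are uncertain.

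The summed level of the members was 1.70% of the estimated total in sorted ESC-OB GFP+ cells, 3.91% in ESC-OB and 6.45% in ESC. In the iPSC tables it was 5.48% in iPSC-OB and 6.99% in iPSC. Sorted cells were thus 3.79 times lower than ESC, ESC-OB 1.65 times lower than ESC and iPSC-OB 1.28 times lower than iPSC. These are values without a test, since the tables hold no levels per sample, and levels of the ESC and iPSC groups come from fits normalised separately. The large subunit gave 62.6% of the members' sum in sorted cells, 60.2% in ESC-OB, 60.3% in ESC, 60.4% in iPSC-OB and 60.2% in iPSC.

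**Figure D1:**
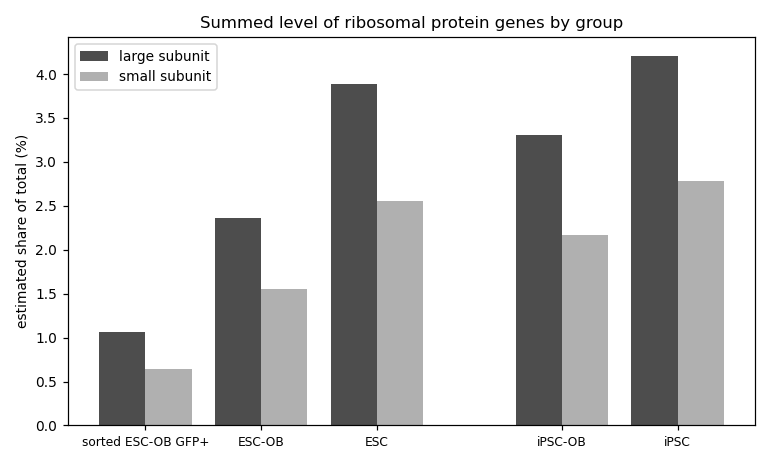
Estimated share of the total level (%, y axis) taken by the large-subunit (dark bars) and small-subunit genes (light bars) in each group (x axis). Both are lowest in sorted ESC-OB GFP+ cells (1.06% and 0.638%) and highest in iPSC (4.21% and 2.78%), and bars carry no error because no values per sample exist.

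Sorted ESC-OB GFP+ against ESC asks how cells with an active collagen promoter differ from the stem cells they came from. Ribosomal protein genes were lower across both subunits. By the authors' DESeq2 test 74 of 81 members fell (91.4%), 0 rose (also 0 at an unadjusted p under 0.05) and 7 did not pass. Among all genes with an adjusted p 32.4% fell and 39.1% rose, and 51.5% of those with a base mean of at least 1000 fell. The median member was at -2.18 on the log2 scale in the authors' deposited table, and the middle of the members ran from -2.67 to -1.69 (quartiles), against a median of 0.33 over all genes. Genes with a base mean of at least 1000 had a median of -0.38. The median standard error of a member was 0.21.

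Rps12, a protein of the small subunit's head, fell furthest among abundant members. It was estimated at 63.9 CPM in sorted cells and 996 CPM in ESC, and the authors' deposited table gives it -4.12 ± 0.24 (log2 fold change ± standard error, here and below; adjusted p = 1.65e-62). Rpl12, which lies at the base of the stalk, had 107 CPM in sorted cells and 923 CPM in ESC, with -3.27 ± 0.19 in the authors' deposited table, with adjusted p of 1.12e-65. Rpl36a, a protein near the site where transfer RNA leaves, was at -3.71 ± 0.22, and Rps4x, a small-subunit protein encoded on X, at -3.64 ± 0.26 in the authors' deposited table, with adjusted p of 2.55e-64 and 1.55e-42. These 4 genes were between 9.66 and 17.4 times lower, whereas the summed level of the members was 3.79 times lower.

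At the other end, 4 of the 7 members that did not pass have a base mean under 100: Rpl30 was at -1.25 ± 0.65, Rpl34 at -0.23 ± 0.39, Rpl3l at -0.51 ± 0.81 and Rps27 at 0.39 ± 0.52 in the authors' deposited table. The abundant ones were Rps19, Rpl13 and Rps27l. Rps19, the small-subunit gene most often mutated in human Diamond-Blackfan anaemia, had 565 CPM in sorted cells and 520.4 CPM in ESC, and -0.04 ± 0.19 in the authors' deposited table, with adjusted p of 0.862. Rpl13 had 859 CPM in sorted cells and 821 CPM in ESC, and -0.09 ± 0.17 in the authors' deposited table, with adjusted p of 0.621. Rps27l was at -0.14 ± 0.14 (adjusted p = 0.391). Among those that passed, Rps14 fell little: the authors' deposited table gives it -0.77 ± 0.20, with adjusted p of 2.25e-04. Abundant members of the same particle thus ranged from no passing change to 17.4 times lower.

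**Figure D2:**
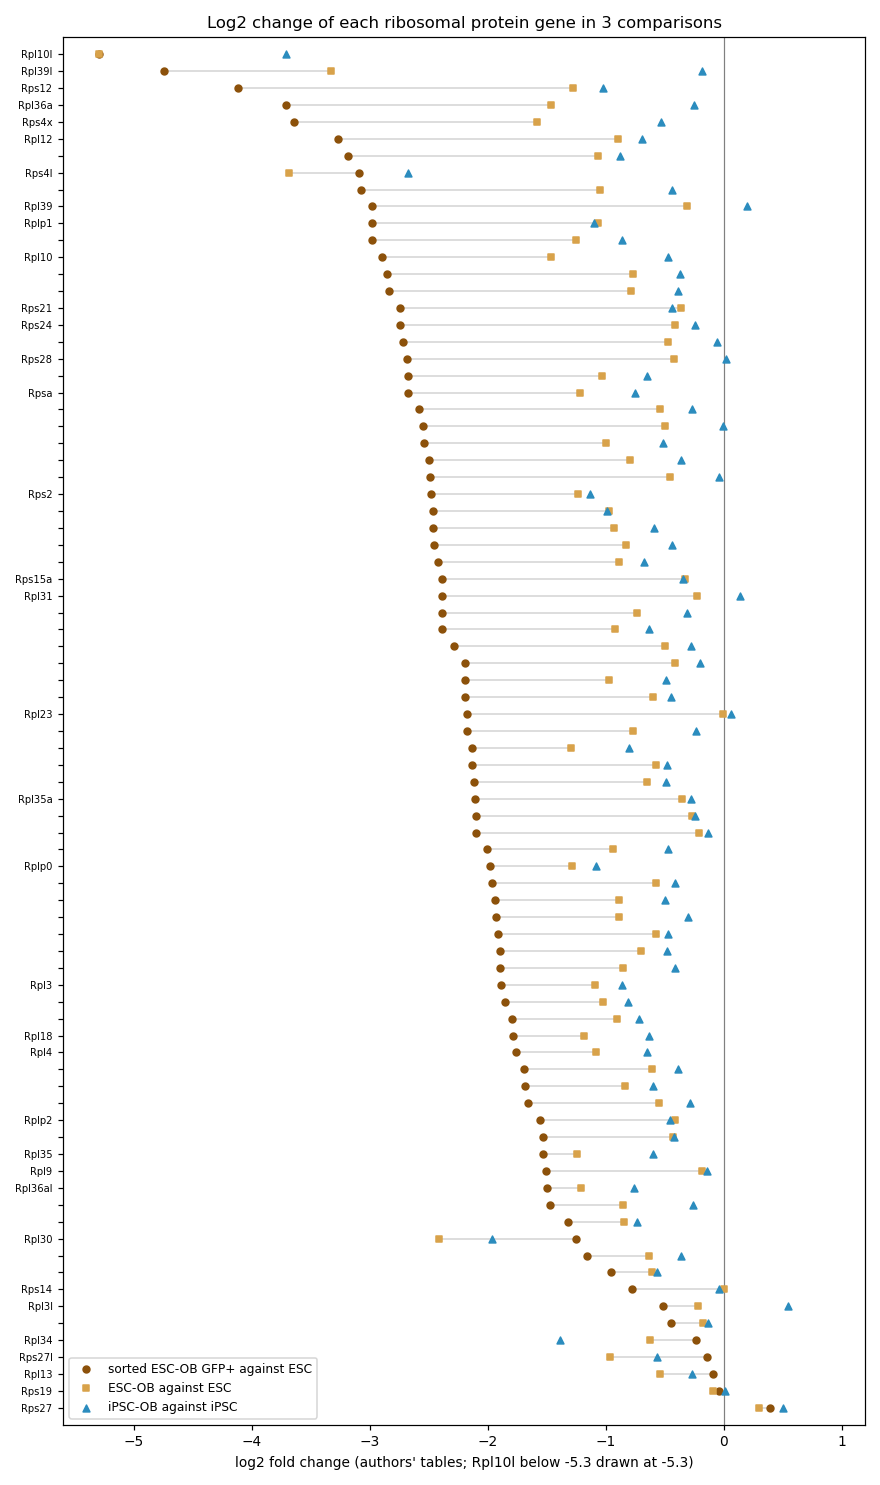
Log2 fold change in the authors' tables (x axis) of each of the 81 members (y axis, ordered by the change in sorted cells, with names for the members described in the text) for sorted ESC-OB GFP+ against ESC (circles), ESC-OB against ESC (squares) and iPSC-OB against iPSC (triangles). Circles lie left of squares for most members, with a median of -2.18 against -0.79, and Rps27l, Rps4l and Rpl30 are among those where they do not.

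Several measures of the libraries moved with the sort. Rn45s, which covers the ribosomal RNA precursor, was at 0.443% of the total in sorted cells, 8.26% in ESC-OB and 6.51% in ESC, with a log2 change of -4.13 ± 0.31 in the authors' deposited table for sorted cells (adjusted p = 8.21e-39). Which libraries used the ultra-low-input kit is not given, so kit, depth and sort cannot be told apart. Transcript length also moved with the change: among genes with a base mean of at least 1000 that are not members, those with transcripts under 1000 bases had a median of 0.12 (93 genes) and those of 4000 bases or more -0.78 (1033 genes). The 48 members in the short class had a median of -2.10. In ESC-OB and iPSC-OB the short non-members had medians of -0.45 and -0.30, and the 48 members -0.80 and -0.44. Non-members of 4000 bases or more had -0.08 and 0.06 there. The part of ribosomal RNA and of transcript length in the members' change was not tested.

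ESC-OB against ESC asks the same of the whole culture. By DESeq2 62 of 81 members fell (76.5%), 0 rose (also 0 at an unadjusted p under 0.05) and 19 did not pass. Among all genes with an adjusted p 31% fell and 38.6% rose, and 46.8% of those with a base mean of at least 1000 fell. A log2 value of -1 or lower, in addition to the adjusted p, was reached by 24 of 81 members (29.6%) and by 21.8% of all genes. The median member was at -0.79 in the authors' deposited table (quartiles -1.05 and -0.47), against 0.22 over all genes. Genes with a base mean of at least 1000 had a median of -0.19. Leaving out the paralogues, Rps4x, Rpl10 and Rpl36a were lowest among abundant members, at -1.59 ± 0.26, -1.47 ± 0.21 and -1.46 ± 0.22 in the authors' deposited table, with adjusted p of 4.66e-09, 1.77e-11 and 5.37e-11. All 3 are X-linked. Rplp0, the scaffold protein of the stalk, was at -1.29 ± 0.15, and Rps2, a protein at the entry of the messenger RNA channel, at -1.24 ± 0.18 in the authors' deposited table, with adjusted p of 1.15e-16 and 8.56e-12.

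Rps14, Rpl23, Rps19 and Rpl9 stood among the highest of the abundant members in ESC-OB, and none of these 4 passed. Rps14, a protein of the small subunit's platform, had 692 CPM in ESC-OB and 642 CPM in ESC, and 0.01 ± 0.20 in the authors' deposited table, with adjusted p of 0.981. Rpl23 had 848 CPM in ESC-OB and 794 CPM in ESC, and -0.01 ± 0.23 in the authors' deposited table, with adjusted p of 0.982. Rps19 lay at -0.09 ± 0.19 and Rpl9 at -0.19 ± 0.21 in the authors' deposited table, with adjusted p of 0.674 and 0.441. Rpl23 and Rpl9 did fall in sorted cells, with -2.18 ± 0.23 and -1.51 ± 0.21 (adjusted p = 3.14e-21 and 5.17e-12 in the authors' deposited table), and both comparisons share the ESC samples.

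iPSC-OB against iPSC repeats the culture from a second stem cell source. By DESeq2 48 of the 80 members with an adjusted p fell (60%), 0 rose (also 0 at an unadjusted p under 0.05) and 32 did not pass. Among all genes with an adjusted p 23.1% fell and 26.1% rose, and 43.8% of those with a base mean of at least 1000 fell. A log2 value of -1 or lower was reached by 8 of the 80 members (10%) and by 16.2% of all genes. The median member was at -0.45 in the authors' deposited table (quartiles -0.65 and -0.26), against 0.17 over all genes. Genes with a base mean of at least 1000 had a median of -0.36, close to that of the members. Rps2, Rplp1, Rplp0 and Rps12 were lowest among abundant members other than the paralogues, at -1.13 ± 0.15, -1.10 ± 0.15, -1.08 ± 0.16 and -1.02 ± 0.17 in the authors' deposited table, with adjusted p of 5.7e-13, 1.24e-12, 5.32e-11 and 2.62e-08. Rplp0 was estimated at 1340 CPM in iPSC-OB and 2536 CPM in iPSC. Rpl39, Rpl31, Rpl23, Rps28 and Rps19 were highest, between 0.20 ± 0.18 and 0.01 ± 0.18 in the authors' deposited table, and none passed (adjusted p = 0.357 for Rpl39 and 0.977 for Rps19). These 2 groups share no samples with the ESC fit. Across the 72 members that are not paralogues and have a base mean of at least 100 in both fits, changes in iPSC-OB and ESC-OB had Pearson's r of 0.74 and Spearman's rho of 0.79, a description over genes that are not independent and share a way of counting.

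Shares and medians were close between the subunits, which is a description with no test of the difference. In sorted cells 45 of 49 large-subunit genes (91.8%) and 29 of 32 small-subunit genes (90.6%) fell, with medians of -2.13 and -2.24 in the authors' deposited table. In ESC-OB 38 large-subunit genes (77.6%) and 24 small-subunit genes (75%) fell, with medians of -0.79 and -0.81. In iPSC-OB 29 of the 48 large-subunit genes with an adjusted p (60.4%) and 19 small-subunit genes (59.4%) fell, with medians of -0.47 and -0.44. Leaving out paralogues and members with a base mean under 100, the medians of the large and small subunit were -2.14 and -2.28 in sorted cells, -0.77 and -0.79 in ESC-OB and -0.46 and -0.44 in iPSC-OB.

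**Figure D3:**
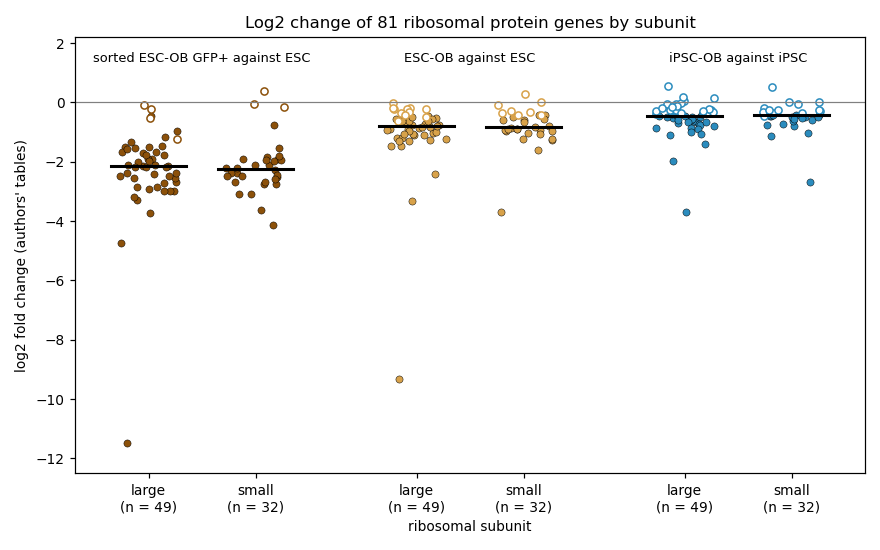
Log2 fold change in the authors' tables (y axis) of large- and small-subunit genes (x axis) in the 3 comparisons, with filled points for members that fell at an adjusted p under 0.05, open points for the others and black bars at the medians. The medians of both subunits lie close together in each comparison (-2.13 and -2.24, -0.79 and -0.81, -0.47 and -0.44), and the lowest point, at -11.50, is Rpl10l.

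Sorted and unsorted cells were compared through the difference of their changes, in which the shared ESC level cancels apart from the authors' shrinkage. The 2 standard errors were combined as if independent, which makes the standard error too large because the ESC samples are shared. Of 81 members 65 were lower in sorted cells (80.2%), 1 was higher and 15 did not pass, against 12.1% lower and 10.7% higher over all genes. The median difference was -1.43, against 0.06 over all genes and -0.04 over those with a base mean of at least 1000. It was -1.42 over the large and -1.46 over the small subunit, with 37 of 49 and 28 of 32 lower. Of the 8 osteoblast markers 0 passed in this difference, and at an unadjusted p under 0.05 2 were higher and 0 lower. These were Ibsp at 5.05 ± 2.25 (578 CPM in sorted cells and 16.7 CPM in ESC-OB) and Col1a1 at 1.08 ± 0.45. With the standard error too large, the count of 0 does not show that these markers were equal in the 2 groups. Markers of other cell types moved between these groups. The 4 epithelial markers summed to 2708 CPM in sorted cells and 1316 CPM in ESC-OB, and 3 of them (Krt8, Krt18 and Epcam) were higher by the same test, Krt8 at 1.07 ± 0.27 (adjusted p = 7.86e-04). The 8 cardiac muscle markers summed to 509 CPM in sorted cells and 2503 CPM in ESC-OB, and 4 of them were lower. Their part in the members' difference was not tested. The 5 lowest were Rps12 at -2.84 ± 0.35, Rpl39 at -2.67 ± 0.35, Rps21 at -2.38 ± 0.40, Rpl12 at -2.38 ± 0.27 and Rps24 at -2.33 ± 0.29 (adjusted p = 1.16e-14, 6.61e-13, 5.21e-08, 4.56e-17 and 9.94e-14). Rpl39, at the protein exit tunnel, was estimated at 83.2 CPM in sorted cells and 509.98 CPM in ESC-OB, and Rps24 at 179.9 CPM in sorted cells and 871 CPM in ESC-OB.

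Rps27l was the member that was higher, at 0.82 ± 0.21 (adjusted p = 5.75e-04), with 202 CPM in sorted cells and 109.5 CPM in ESC-OB. Rps4l, Rpl13 and Rps19 did not pass and had differences of 0.59 ± 0.32, 0.45 ± 0.24 and 0.05 ± 0.27. Short transcripts moved the other way in this difference: the 93 abundant non-members under 1000 bases had a median of 0.67, and the 48 members of that class -1.45. Myc, a transcriptional activator of ribosome genes, stood higher in sorted cells than in ESC-OB, at 349 CPM against 88.1 CPM, a difference of 1.93 ± 0.53 (adjusted p = 0.00208).

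The change in iPSC-OB minus the change in ESC-OB passed for 7 members, all higher (8.64%). At an unadjusted p under 0.05 it was 13 higher and 0 lower. Over all genes the shares were 11% higher and 17.2% lower, so the members' share is near the background. With each table centred on its median gene 14 members were higher (17.3%), against 13.8% of all genes. Without centring, leaving out the X-linked members described below took the 7 to 4. The median difference over members was 0.27, against -0.07 over all genes and 0.099 over those with a base mean of at least 1000. The 7 were Rpl10l at 5.63 ± 1.21, Rpl39l at 3.15 ± 0.65, Rpl36a at 1.21 ± 0.28, Rps4x at 1.06 ± 0.30, Rpl10 at 0.99 ± 0.26, Rpl35 at 0.64 ± 0.25 and Rpl18, named after its value was seen, at 0.55 ± 0.21. Their adjusted p were 3.6e-05, 1.57e-05, 1.56e-04, 0.00247, 7.53e-04, 0.0419 and 0.0347. For the other 74 the difference did not pass. Rps21, Rps14, Rplp2, Rplp1 and Rps15a were the lowest abundant members (base mean at least 100). The 95% interval for Rps21 ran from -0.72 to 0.56.

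Rpl36a, Rps4x and Rpl10 lie on the X chromosome, as does Rpl39, and these 4 are the X-linked members. Their median was -1.46 in ESC-OB and -0.36 in iPSC-OB in the authors' deposited tables. The 72 autosomal members with a base mean of at least 100 had medians of -0.79 in ESC-OB and -0.45 in iPSC-OB. Other X-linked genes moved likewise: 372 X-linked genes that are not members had a median of -0.81 in ESC-OB and 0.11 in iPSC-OB, while 10388 autosomal ones had 0.08 and 0.05. In sorted cells the X-linked members had a median of -3.31 and the autosomal members -2.16. The X-linked and autosomal non-members had -1.10 and 0.11 in sorted cells. The change in iPSC-OB was higher than that in ESC-OB, by the test of the difference, for 51.9% of the X-linked non-members and 13.4% of the autosomal ones.

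Rpl10, which helps to form the peptide-joining centre, was estimated at 289 CPM in sorted cells, 749.5 CPM in ESC-OB and 1931 CPM in ESC, and at 942 CPM in iPSC-OB and 1172 CPM in iPSC. Within the ESC fit the undifferentiated ESC stood highest. Rpl39 was the X-linked member that did not pass in ESC-OB, at -0.31 ± 0.25 in the authors' deposited table, with adjusted p of 0.257. Its difference of the changes did not pass either, at 0.51 ± 0.30 (adjusted p = 0.213). Xist, the RNA that silences an X chromosome, was at 1.58 ± 0.29 in sorted cells, 4.37 ± 0.28 in ESC-OB and -0.41 ± 0.46 in iPSC-OB in the authors' deposited tables, with adjusted p of 6.74e-08, 8.82e-52 and 0.472. Its part in the change of the X-linked members was not tested.

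**Figure D4:**
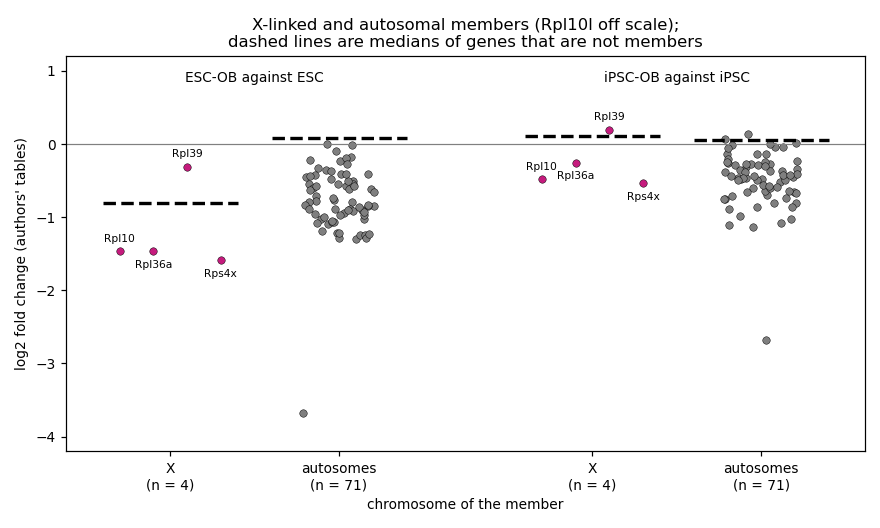
Log2 fold change in the authors' tables (y axis) of X-linked members (labelled) and autosomal members with a base mean of at least 100 (x axis) for ESC-OB against ESC and iPSC-OB against iPSC, without Rpl10l, which is off the scale. Dashed lines are medians of genes that are not members: the X-linked line is at -0.81 in ESC-OB and 0.11 in iPSC-OB, and the autosomal lines are at 0.08 and 0.05.

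Of all members, Rpl10l had the lowest fold change in all 3 comparisons. It was estimated at 34.9 CPM in ESC, and in sorted cells and ESC-OB it lay under a floor of 3 reads, which makes it at least 805 times and at least 290 times lower there. The authors' deposited table gives it -11.50 ± 1.26 and -9.33 ± 1.07 (adjusted p = 3.55e-19 and 1.66e-17), fitted values that rest on those few reads. In iPSC-OB it was at 0.877 CPM, against 10.3 CPM in iPSC, and fell, with -3.71 ± 0.55 in the authors' deposited table, with adjusted p of 2.27e-10. Rpl39l had 0.496 CPM in sorted cells, 1.28 CPM in ESC-OB and 11.9 CPM in ESC, with -4.75 ± 0.37 and -3.33 ± 0.37 in the authors' deposited table, with adjusted p of 1.14e-36 and 3.3e-18. In iPSC-OB it had 4.29 CPM, against 4.35 CPM in iPSC, and did not pass (adjusted p = 0.804).

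Even in ESC both were minor beside their partners. Per kilobase of transcript, Rpl10l made up 1.49% of the Rpl10 and Rpl10l pair in ESC and Rpl39l 1.52% of the Rpl39 and Rpl39l pair. Germ cell markers, led by Dazl and Ddx4, were also lower in the differentiated groups: 8 listed genes summed to 1.27 CPM in sorted cells, 1.63 in ESC-OB and 42.5 in ESC, and the 5 in the iPSC table to 2.89 in iPSC-OB and 43.1 in iPSC, where Rpl39l did not pass. In sorted cells 2 of the 8 lay under the floor, in ESC-OB 5 and in ESC 4. Their part in the change of the paralogues was not tested.

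Rps4l, annotated in RefSeq as a transcribed pseudogene, had 52.6 CPM in sorted cells, 33.5 CPM in ESC-OB and 401 CPM in ESC, and 45.9 CPM in iPSC-OB and 263 CPM in iPSC. It fell in each comparison, with -3.09 ± 0.22, -3.68 ± 0.23 and -2.67 ± 0.36 in sorted cells, ESC-OB and iPSC-OB in the authors' deposited tables, with adjusted p of 5.89e-43, 4.99e-58 and 1.13e-12. Rps4x, its namesake, was at -3.64 ± 0.26 in sorted cells, -1.59 ± 0.26 in ESC-OB and -0.53 ± 0.14 in iPSC-OB in the authors' deposited tables, which is below Rps4l in sorted cells and above it in the other cultures, with no test between the genes.

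Rpl36al and Rpl36a encode nearly the same protein, from chromosome 12 and from X. Rpl36al fell in each comparison, with -1.50 ± 0.15, -1.21 ± 0.15 and -0.76 ± 0.20 in sorted cells, ESC-OB and iPSC-OB in the authors' deposited tables, with adjusted p of 2.86e-22, 1.23e-14 and 6.88e-04. Per kilobase, Rpl36al was 58.4% of the pair in sorted cells, 26.4% in ESC-OB and 23.2% in ESC, and 25.6% in iPSC-OB and 32.7% in iPSC. The pair was led by Rpl36a in every group except sorted cells.

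Rps27l, a paralogue that p53 activates in human cells, fell in ESC-OB and iPSC-OB, with -0.96 ± 0.15 and -0.57 ± 0.21 in the authors' deposited tables, with adjusted p of 1.68e-10 and 0.0160. Its partner Rps27 was estimated at 1.30 to 2.52 CPM in the 5 groups, so the pair cannot be compared. Rpl3l was at the edge of detection in all groups, at 0.365 CPM in sorted cells, 0.431 in ESC-OB and 0.467 in ESC, and 0.108 in iPSC-OB and 0.0663 in iPSC, the last 2 at or under the floor of 3 reads. Cardiac muscle markers summed to 509 CPM in sorted cells, 2503 in ESC-OB and 27.2 in ESC. Rpl3, its general partner, fell in each comparison, with -1.89 ± 0.17, -1.09 ± 0.17 and -0.86 ± 0.15 in the authors' deposited tables, with adjusted p of 1.15e-28, 2.3e-10 and 2.39e-08.

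**Figure D5:**
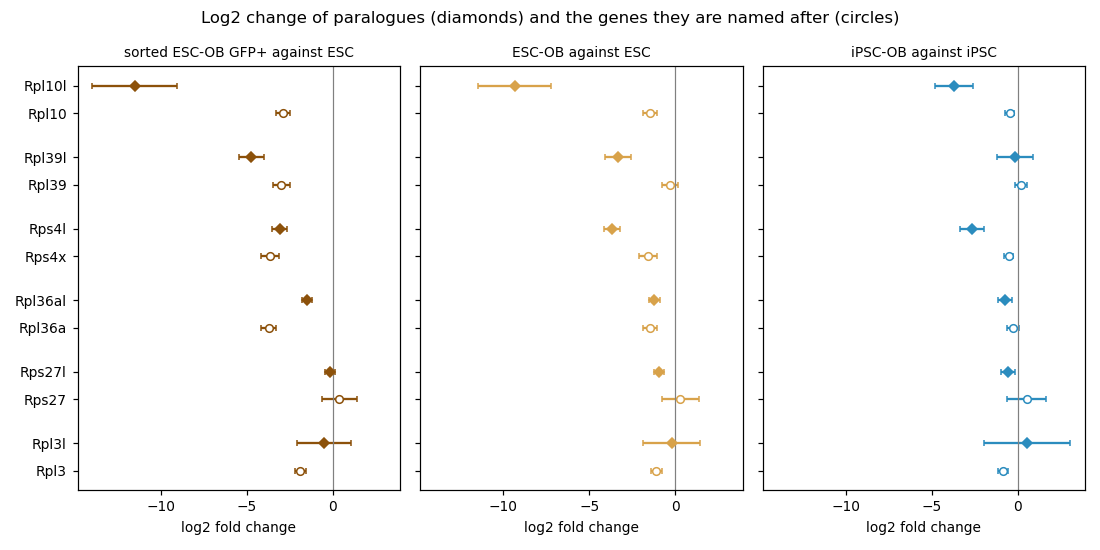
Log2 fold change in the authors' tables (x axis) with 95% intervals from the standard errors for 6 paralogues (diamonds) and the genes they are named after (circles), in the 3 comparisons. Rpl10l lies lowest, at -11.50, -9.33 and -3.71, while Rpl36al lies right of Rpl36a in sorted cells (-1.50 and -3.71).

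Genes outside the naming rule that encode proteins of the ribosome, or are named after one that does (Rpl22l1 and Rpl7l1), were set beside the members. Rps3a1, a small-subunit gene whose symbol the rule misses, fell in each comparison. Its values in sorted cells, ESC-OB and iPSC-OB were -2.02 ± 0.21, -0.65 ± 0.21 and -0.41 ± 0.14 in the authors' deposited tables (adjusted p = 7.32e-21, 0.00379 and 0.0118). Fau encodes a small-subunit protein fused to a ubiquitin-like domain. It fell in sorted cells and ESC-OB, with -1.67 ± 0.18 and -0.45 ± 0.18 in the authors' deposited table and adjusted p of 2.4e-19 and 0.0222. In iPSC-OB it did not pass, at 0.06 ± 0.20 in the authors' deposited table. Gnb2l1 (Rack1), a signalling scaffold on the small subunit, fell in each comparison, with -2.52 ± 0.16, -0.86 ± 0.16 and -0.38 ± 0.14 in the authors' deposited tables, with adjusted p of 2.83e-54, 1.99e-07 and 0.0175. Rpl22l1 was at -0.65 ± 0.26, -0.48 ± 0.26 and -1.01 ± 0.25 in the authors' deposited tables, of which the middle value did not pass (adjusted p = 0.0888). Rpl7l1 fell in each, with -1.15 ± 0.13, -1.81 ± 0.14 and -1.42 ± 0.16 in the authors' deposited tables.

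Translation factors and some other proteins, such as Nap1l1, Hnrnpa1 and Naca, whose messenger RNAs also carry the TOP element moved in the same direction. Of 17, 16 fell in sorted cells (median -2.04), 13 fell and 2 rose in ESC-OB (-0.97), and 10 fell and 1 rose in iPSC-OB (-0.64). In the difference between sorted and unsorted cells (z test on the DESeq2 values) 13 were lower and 0 higher, also 0 at an unadjusted p under 0.05 (median -1.17). Eef1a1, the elongation factor that brings transfer RNA to the ribosome, had 1871 CPM in sorted cells, 7350.4 CPM in ESC-OB and 9757 CPM in ESC, and fell, with -2.54 ± 0.17 and -0.51 ± 0.17 in the authors' deposited table, with adjusted p of 4.02e-47 and 0.00568. Pabpc1, the poly(A)-binding protein, fell, with -3.50 ± 0.14, -1.54 ± 0.13 and -1.05 ± 0.22 in the authors' deposited tables. Tpt1 went the other way in ESC-OB, at 1.12 ± 0.22, and fell in sorted cells, with -1.36 ± 0.22 in the authors' deposited table, with adjusted p of 1.0e-06 and 1.84e-09.

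Genes that build ribosomes were lower in all 3 comparisons. Of 48 ribosome biogenesis genes 47 fell and 1 rose in sorted cells (median -1.96), and all 48 fell in ESC-OB and in iPSC-OB (-2.27 and -2.14). In the difference between sorted and unsorted cells 18 were higher and 7 lower (median 0.35), while 65 members were lower. Npm1, a nucleolar chaperone, fell, with -4.21 ± 0.19, -2.84 ± 0.19 and -2.26 ± 0.15 in the authors' deposited tables. Ncl (nucleolin), which binds precursor ribosomal RNA, fell likewise, with -3.42 ± 0.14, -2.30 ± 0.14 and -2.62 ± 0.15 in the authors' deposited tables. Of 15 genes of RNA polymerase I and its factors, 13, 14 and 11 fell in sorted cells, ESC-OB and iPSC-OB (medians -1.63, -1.52 and -1.83), and 2 differed between sorted and unsorted cells, both lower. In ESC-OB and iPSC-OB the biogenesis median was thus lower than that of the ribosomal proteins (-0.79 and -0.45).

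Genes of the mitochondrial ribosome, a separate particle, also fell more often than they rose. Of 77, 45 fell and 14 rose in sorted cells (median -0.45), 61 fell in ESC-OB (-1.10) and 55 in iPSC-OB (-0.94), with 0 rising by DESeq2 in these cultures (0 and 1 at an unadjusted p under 0.05). In the difference between sorted and unsorted cells 40 were higher and 0 lower, or 1 lower at an unadjusted p under 0.05 (median 0.66). Of 28 initiation factors 22, 25 and 25 fell in sorted cells, ESC-OB and iPSC-OB (78.6%, 89.3% and 89.3%), and 1, 1 and 0 rose. Over all genes 32.4%, 31% and 23.1% fell. In sorted against unsorted cells 8 initiation factors were higher and 8 lower.

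Known regulators did not share 1 direction. Myc rose by 5.06 ± 0.37 in sorted cells and 3.13 ± 0.37 in ESC-OB and fell, with -1.004 ± 0.44 in iPSC-OB in the authors' deposited tables, with adjusted p of 9.29e-41, 3.07e-16 and 0.0489. Mycn, the family member typical of stem cells, fell, with -2.97 ± 0.35, -3.51 ± 0.35 and -2.30 ± 0.31 in the authors' deposited tables, with adjusted p of 3.34e-17, 7.79e-23 and 1.45e-12. Larp1, which binds TOP messenger RNAs, fell, with -2.04 ± 0.16, -1.66 ± 0.16 and -1.75 ± 0.16 in the authors' deposited tables. Mtor, the kinase upstream of it, also fell, with -1.47 ± 0.16, -0.52 ± 0.16 and -0.82 ± 0.17 in the authors' deposited tables. Over the 16 regulators listed, 6 rose and 9 fell in sorted cells, 2 rose and 8 fell in ESC-OB and 1 rose and 10 fell in iPSC-OB.

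Most of the short motifs looked for, though not TATAAA, were found in a larger share of the members' promoters than of all promoters. The latter were not matched for expression level, and no test was run. RefSeq promoters of GRCm38.p6 were matched for 60 members. CTTTC on the sense strand between positions -20 and 20 from the annotated start was found in 18 of 60 members (30%) and in 5.38% of 27025 promoters. The letters of the ETS family motif, CCGGAAG, on either strand between -250 and 50, were in 38.3% of members and 9.12% of all. Those of YY1, AAGATGGC, were in 6.67% (4 of 60 members) and 2.88%, and the GC box GGGCGG in 60% and 35.9%. TATAAA between -50 and -10 on the sense strand was found in none of the 60 and in 2.64% of all. CCGGAAG and AAGATGGC can overlap by the letters AAG. A match is a description of the letters and not a site in use.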

How the data were processed

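Messenger RNA was sequenced, and the authors deposited 3 tables of comparisons. The submitters' processing notes name STAR 2.4.2a, mm9, DESeq2 and R 3.2.2. Per the file headers, the authors' tables give a base mean (a signal, the normalised count averaged over libraries), the log2 fold change, its error, a test score, and p-values raw and adjusted. There were 0 columns with values of a single sample, which leaves the authors' DESeq2 test as the only one between groups. Direction was read from Pou5f1, Nanog and Esrrb, which were negative in every table. Both ESC tables had identical base means, so they share the ESC samples.

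Differences of changes were tested with z, adjusted by Benjamini-Hochberg over all genes (19739 for sorted minus ESC-OB, 18597 for iPSC-OB minus ESC-OB), with Python 3.11.15, pandas 2.3.3, numpy 2.4.6 and scipy 1.17.1, a step tested on simulated data. Adjusted p-values missing in the authors' tables (1193, 1573 and 1478 genes) were not called. Group levels in CPM left out Rn45s and used the number of samples in the labels. Depths came from base means of genes with few reads, which were sums of whole reads for 1063 of 1063 genes in the ESC fit and 1456 of 1456 in the iPSC fit (tolerance 3e-07). That reading placed 3 libraries on the iPSC side, against 2 in the labels. The floor of 3 reads covers counting error only. Lengths and coding sequences came from GENCODE, and chromosomes and promoters from RefSeq, both on GRCm38, so no coordinates of the authors' build are given.

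The named members were, in each comparison, the 5 highest and 5 lowest with a base mean of at least 100, the paralogues with their partners, and members that did not pass where few; some results under this rule are not reported here. Members and lists were chosen with earlier results of these data known. Other thresholds, filters, centring and library numbers were tried.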

Additional observations from a re-analysis of the deposited data

Results flagged for a closer look

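The change in sorted GFP+ cells and in unsorted ESC-OB differed by a test of the difference for 65 members that were lower in sorted cells (80.2%, against 12.1% of all genes). They included, among the lowest and the paralogue pairs, Rps12 (-2.84), Rpl39 (-2.67), Rpl12 (-2.38), Rps21 (-2.38), Rps24 (-2.33), Rpl36a (-2.25), Rps4x (-2.05), Rpl10 (-1.43), Rpl39l (-1.42) and Rpl3 (-0.80), each as log2 of sorted minus unsorted. Rps27l was higher, at 0.82.

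The change in iPSC-OB and in ESC-OB differed for 7 members, all with the higher change in iPSC-OB (8.64%, near the 11% of all genes). Besides Rpl18 they were Rpl10l (5.63), Rpl39l (3.15), Rpl36a (1.21), Rps4x (1.06), Rpl10 (0.99) and Rpl35 (0.64). The X-linked genes among them and Xist moved as given above, and no cause was tested. Groups of 2 or 3 samples with no values per sample could not be searched for a sample standing apart.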

How the results depend on the processing

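No paired analysis was possible because the tables hold no values per sample, and for the same reason no replicate could be left out. Re-centring each table on its median gene (0.21, 0.19 and 0.06 in sorted cells, ESC-OB and iPSC-OB) moved the median member of sorted cells to -2.38. The same step raised the members with a higher change in iPSC-OB than in ESC-OB to 14 (17.3%, against 13.8% of all genes). It also turned values near 0 round without any passing: Rps14 to -0.18 in ESC-OB, Rps19 to -0.054 and Rps28 to -0.042 in iPSC-OB, and, for iPSC-OB minus ESC-OB, Rplp1 to 0.10, Rplp2 to 0.083, Rps14 to 0.081, Rps15a to 0.11 and Rps21 to 0.052. Asking for a log2 change of at least 1 left 24 members lower in ESC-OB (29.6%, against 21.8% of all genes). In iPSC-OB it left 8 (10%, against 16.2% of all genes). Without centring, leaving out the X-linked members left 4 with a higher change in iPSC-OB than in ESC-OB. That alternative was chosen after seeing the data. Of the summary values, 59 under the other settings kept their direction and stayed within the limits set, and of the values of single named members 319 kept their call, 5 came to pass and 4 no longer passed. Standard errors of the sorted minus unsorted difference ignore the shared ESC samples and are thus too large. Few reads limit the values of Rpl10l and Rpl3l.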
